A study of Mus musculus with 24 samples.

Results

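ERVL-MaLR elements are repeat sequences of mouse cells, and they were taken from a table of RNA counts as the repeat names whose family is exactly ERVL-MaLR. This rule gave 109 of the 1445 repeat elements in the table. The names fall into 49 that begin with MT or ORR1, which are rodent names, and 60 that begin with MLT, which are older names shared with other mammals. The older prefixes MST and THE1 had 0 names in the table. Of the 109 names, 56 end in -int, which marks the internal part between the long terminal repeats (LTRs), with 26 in the rodent and 30 in the older group. After removal of names with low counts, 91 members were tested, 48 rodent (20 MT and 28 ORR1) and 43 older. Of the 18 members not tested, 17 were internal parts of older names and 1 was the internal part ORR1G-int. None of the 18 exceeded 12 counts in a library, and 5 had no count in any library.

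MaLR elements (mammalian apparent LTR retrotransposons) are old relatives of the ERVL retroviruses in class III of the endogenous retroviruses. They have no reverse transcriptase gene of their own, and most copies in the genome are solitary LTRs left by recombination. MLT copies entered before the mammals diversified, and ORR1 and MT copies spread in rodents. LTRs carry promoter and splice signals, and MT LTRs are known as promoters of many transcripts in the mouse oocyte and early embryo. Histone H3 lysine 9 methylation (H3K9me), written by 6 methyltransferases (KMTs), is one of the layers that represses LTR elements.

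The study asked what happens to heterochromatin when these KMTs are removed in combination from mouse embryonic fibroblasts. WT denotes the clone *E1c*, which carries a conditional *Eset1* (*Setdb1*) allele and an inducible Cre, without 4-hydroxytamoxifen (4-OHT). *E1* is the same clone after 4-OHT, so all 8 conditions share the conditional allele. *E1 S1S2* (also lacking *Suv39h1* and *Suv39h2*) and *6KO1* (all 6 KMT genes) are the first series of clones after 4-OHT. *E2* is a clone with a mutation in *Eset2* (*Setdb2*) without 4-OHT, and *E1E2* is this clone after 4-OHT. *E1E2 G9Gl* (also lacking *G9a*/*Ehmt2* and *Glp*/*Ehmt1*) and *6KO2* (all 6 KMT genes) are the second series after 4-OHT. Each genotype is 1 clone, each condition has 3 libraries described as biological replicates, and p-values measure the spread between these libraries only. The treatment label names 4-OHT for every sample, and the titles were followed, in which the libraries of WT and of *E2* are the controls, so that these are without 4-OHT by title and by the study's methods.

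The libraries held 24736829 to 37419071 counts, with 19541909 to 31489070 on genes and 153307 to 324014 on ERVL-MaLR. Among the targeted genes, the log2 fold change against WT was -0.57 for *Setdb1* in *E1* and -1.36 for *Setdb2* in *E2*. *Setdb1* stood at -0.31 in both *E2* and *E1E2*, so its RNA does not tell these apart. ERV1 elements, another LTR family, held 371177 to 554170 normalized counts in *E2* and 423648 to 439272 in *E1E2*, against 32986 to 43436 in WT, so the libraries labelled *E2* were far above WT and overlapped with *E1E2*. Whether *E2* still had an intact *Eset1* was not tested here. The study checked loss of the KMT proteins by western blot, and the *Eset2* mutation by sequencing. Its *Eset1* deletion removes some exons and the other genes were targeted for frameshifts, so RNA of the whole gene does not measure loss of protein. *Ehmt2* was at -1.32 (*6KO1*), -1.69 (*E1E2 G9Gl*) and -0.56 (*6KO2*), and *Suv39h1* at -1.14 in *E1 S1S2*. *Suv39h2* RNA was at 0.76 in the libraries labelled *E1 S1S2* and at -1.47 in *E1E2 G9Gl*, where it is not a target. WT replicate 2 stood apart. Its ERVL-MaLR total was 139996 normalized counts against 201576 and 192803 in WT replicates 1 and 3. Its SINE total, from short interspersed elements, was 892715 against 1245024 and 1203190, and its 7SLRNA count was 1916101 against 1310858 and 1363030. Totals and counts of calls against WT are therefore also given without this library, as are calls of single named elements that change without it. Other members whose call changes are counted but not named. Libraries of other conditions differed as well. In *E1* the ERVL-MaLR total ran from 169196 to 209757 and 7SLRNA from 1111675 to 1772244. Of 12 fibroblast markers, 8, among them *Col1a1*, *Vim* and *Fn1*, were above 0 in all libraries, whereas *Lum* was at 0 in 22, *Fap* in 5, *Thy1* in 4 and *Dcn* in 3.

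The normalized counts used here are counts divided by gene-row totals times TMM factors from genes and set to the mean library. A count is a sum over all copies of a name, and copy numbers and lengths were not used, so levels were not compared between elements. These are bulk samples, so fewer or more cells that make an RNA and less or more RNA per cell cannot be told apart. An element is called where the log2 fold change is at least 1 in size and the adjusted p, over all 1216 repeat elements tested (edgeR's quasi-likelihood test), is at most 0.01. The comparisons against WT share the same 3 WT libraries.

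On the scale of gene counts the summed ERVL-MaLR RNA was highest in *E1E2 G9Gl*, then in *6KO1*, then in *6KO2*, and within the WT range or just above it in the other mutants. WT held 178125 ± 33311 normalized counts (mean ± SD, n = 3). The libraries of *E1E2 G9Gl* held 328662, 307810 and 317057, those of *6KO1* 284882, 263973 and 262588, and those of *6KO2* 218644, 220944 and 219425. All 9 of these libraries lay above every WT library. The totals were 1.78-fold (*E1E2 G9Gl*), 1.52-fold (*6KO1*) and 1.23-fold (*6KO2*) of the WT mean, or 1.61-fold, 1.37-fold and 1.11-fold without WT replicate 2. In *E1*, *E1 S1S2*, *E2* and *E1E2* the fold was 1.05, 1.12, 1.08 and 1.10, and each fell to between 0.949 and 1.02 without WT replicate 2, so the sum gave no departure beyond the WT spread there. With TMM factors from the repeats themselves, which take up a shift shared by most repeats, the fold was 1.00 in *E1E2 G9Gl* and 0.995 in *6KO1*, with 0.985 in *6KO2*. The median log2 fold change of all repeat elements was then -0.05 for *6KO1*, against 0.56 with factors from genes.

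A quantity that needs no scaling between libraries, chosen after seeing the data, gave the same order. The ratio of ERVL-MaLR to SINE counts was 0.160 ± 0.00259 in WT and included WT replicate 2 at 0.157, within 0.157 to 0.162. It was 0.271 ± 0.00373 in *E1E2 G9Gl* and 0.238 ± 0.00427 in *6KO1*, with 0.209 ± 0.00307 in *6KO2*. The ranges of these 3 mutants, 0.267 to 0.274, 0.234 to 0.242 and 0.206 to 0.212, did not overlap with WT or with each other. Every library of *E1*, *E1 S1S2* and *E2* lay just above the WT range, at 0.162 to 0.171, where the lowest and the highest WT library round to the same value, whereas *E1E2* overlapped it, at 0.160 to 0.164. The ratio also moves with SINE. With factors from genes the SINE totals were 1.05-fold (*E1E2 G9Gl*), 1.02-fold (*6KO1*) and 0.945-fold (*6KO2*) of WT. In *6KO2* the median log2 fold change of SINE elements was -0.14, with 3 of 37 above 0, so lower SINE counts enter its ratio. ERVL-MaLR and its relative ERVL moved nearly in proportion, with 4.63 to 4.74 ERVL-MaLR counts per ERVL count in WT and 4.58 to 4.63 in *E1E2 G9Gl*, and the ratio was lowest in *6KO1*, at 4.41 to 4.47. The share of ERVL-MaLR among all LTR counts was 47.2% to 49.2% in WT and 11.8% to 12.8% in *6KO1*, where other LTR families held the rest. A lower share was not particular to the loss of all KMT genes. It was also below WT in *E2* and *E1E2*, where ERV1 counts alone exceeded the ERVL-MaLR totals.

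**Figure D1:**
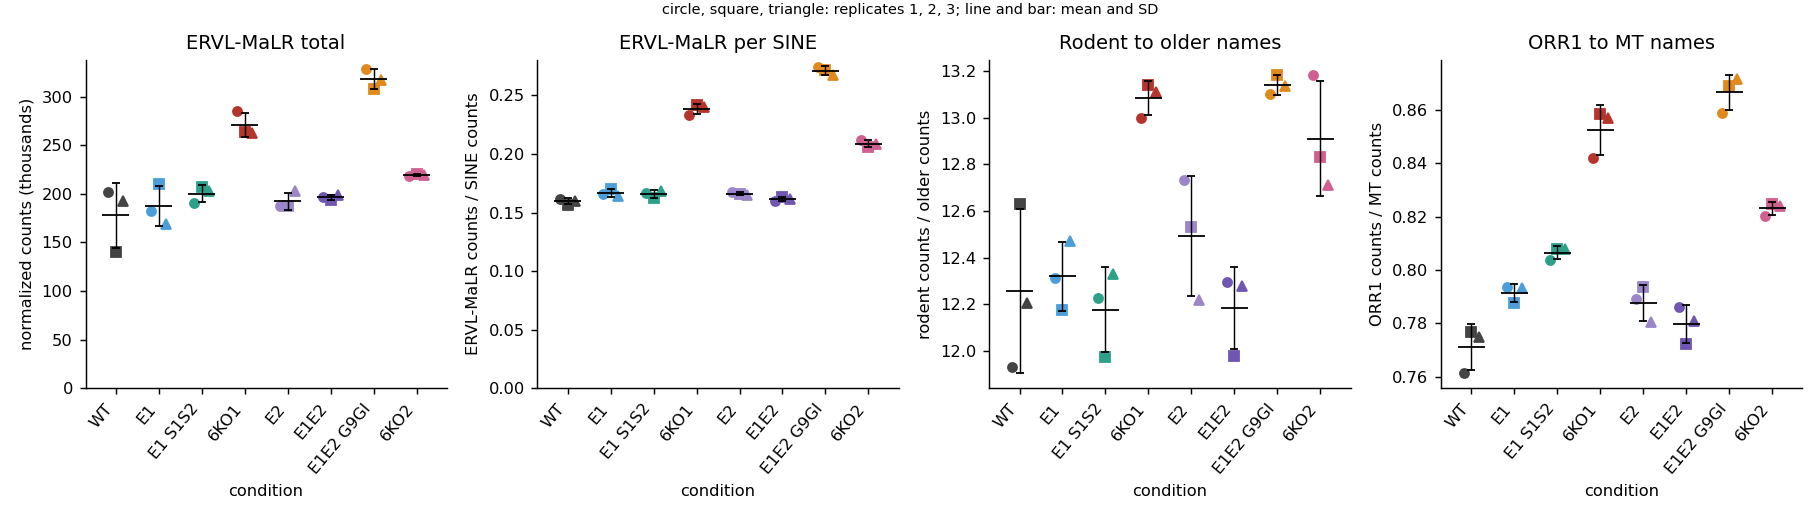
Per-library values for the 8 conditions, with ERVL-MaLR totals in normalized counts (axis in units of 1000), then the ERVL-MaLR to SINE, rodent to older and ORR1 to MT count ratios (the axes of the rodent to older and ORR1 to MT ratios do not start at 0). Circle, square and triangle are replicates 1, 2 and 3, with line and bar for mean and SD (n = 3). In all panels the libraries of *E1E2 G9Gl*, *6KO1* and *6KO2* lie above WT, in the first with factors from genes, and WT replicate 2 (square) stands apart in the totals.

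Single members were few among the calls and many among small changes. In the *E1E2 G9Gl* mutant, 21 members were called upregulated and 0 downregulated, beside 41.4% of all repeat elements called upregulated and 2.06% called downregulated. In *6KO1*, 10 members were called upregulated and 0 downregulated, beside 32.7% and 2.63%. In *6KO2*, 2 members were called upregulated and 0 downregulated, beside 22.4% and 2.06%. Without the fold minimum 78 of 91 members (*E1E2 G9Gl*), 71 (*6KO1*) and 29 (*6KO2*) were higher, beside 62.3%, 52.4% and 37.5% of all repeat elements, and 0 were lower in each, beside 3.37%, 4.69% and 4.52%. Every mutant library lay above every WT library for 79, 75 and 46 members, beside 66%, 58.1% and 45.1% of all repeat elements. The members' median log2 fold change (0.79, 0.58 and 0.27 in the same order) was close to that of all repeat elements (0.78, 0.56 and 0.28), so the members as a list moved about as far as the typical repeat element on this scale. Without WT replicate 2, where 93 members were tested, 14, 5 and 2 members were called upregulated in the 3 mutants, and 71, 58 and 22 were higher without the fold minimum. The other WT libraries moved the calls the other way, to 32 in *E1E2 G9Gl* without WT replicate 1 and to 16 in *6KO1* without WT replicate 3. MLT1C-int, chosen after its values were seen, was called downregulated in *6KO1* at -1.58 without WT replicate 2, from counts under 15 in every WT library. MLT1C-int passed the low-count filter only with WT libraries, where it is high, so this call is not independent of that selection. Beside the 0 downregulated members by edgeR, the members lower at an unadjusted p under 0.05 numbered 0 (*E1E2 G9Gl*), 2 (*6KO1*) and 0 (*6KO2*), and DESeq2 called 0 in each. Scaling to gene totals alone called 23 members upregulated in *6KO1*, where the median of all repeat elements moved to 0.74.

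Rodent and older names had similar median changes, and the most extreme values belonged to older names with few counts. In *E1E2 G9Gl* all 48 rodent members tested were higher without the fold minimum, with log2 fold changes from 0.35 to 1.62, and 11 of them were called. Of the 43 older members, 30 were higher, with log2 fold changes from -1.03 to 5.65, and 10 were called. The medians were 0.83 and 0.73. In *6KO1* 46 rodent and 25 older members were higher, with medians of 0.63 and 0.53, and 5 of each were called. Without WT replicate 2, 7 rodent and 7 older members were called in *E1E2 G9Gl*, and 2 rodent and 3 older in *6KO1*. In *6KO2* 22 rodent and 7 older members were higher, with medians of 0.30 and 0.26, and 0 rodent and 2 older members were called. With factors from repeats, 14, 17 and 13 rodent members were higher in *E1E2 G9Gl*, *6KO1* and *6KO2*, and in a fit of the 6 libraries alone the count was 9 for *6KO2*. The 7 older members higher in *6KO2* became 12 without WT replicate 1.

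The spread of the log2 fold changes went with the count level. Of the members with a mean of at least 1000 normalized counts, 34 were rodent and 6 older, and in *E1E2 G9Gl* their log2 fold changes ran from 0.55 to 1.62 and from 0.51 to 0.90. Their medians, rodent then older, were 0.87 and 0.76 there, 0.68 and 0.51 in *6KO1*, and 0.33 and 0.24 in *6KO2*. From 100 to 1000 counts in *E1E2 G9Gl*, 14 rodent members ran from 0.35 to 1.49 with a median of 0.75 and 16 older members from 0.22 to 1.80 with a median of 0.75. At this level the medians were 0.52 and 0.51 in *6KO1* and 0.19 and 0.26 in *6KO2*. So at like counts the ranges of the name groups overlapped. The 21 older members under 100 counts, a level with 0 rodent members, ran from -1.03 to 5.65 in *E1E2 G9Gl* and held 6 of the 10 older calls there. The precision of a fold change at such counts is low. Summed over members, the ratio of rodent to older counts was 12.3 ± 0.351 in WT, 13.1 ± 0.0411 in *E1E2 G9Gl* and 13.1 ± 0.0745 in *6KO1*, with 12.9 ± 0.246 in *6KO2*. All 9 libraries lay above the highest WT value of 12.6, which was WT replicate 2. The log2 difference from WT was 0.10, 0.095 and 0.075. With LTR names alone it was 0.078, 0.047 and 0.067, and scaling between libraries does not enter it.

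Internal parts and LTRs of the rodent names moved by different amounts in *6KO1*. Internal parts made up 20.4% to 22.5% of rodent counts in WT, with WT replicate 2 highest, 23.4% to 24.1% in *6KO1* and 22.2% to 23.0% in *E1E2 G9Gl*, with 21.7% to 22.5% in *6KO2*. The *6KO1* libraries lay above all WT libraries, and the other mutants overlapped with WT replicate 2. Of the 23 rodent LTRs tested, 6 were called upregulated in *E1E2 G9Gl* and 2 in *6KO1*, and of the 25 internal parts 5 and 3.

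**Figure D2:**
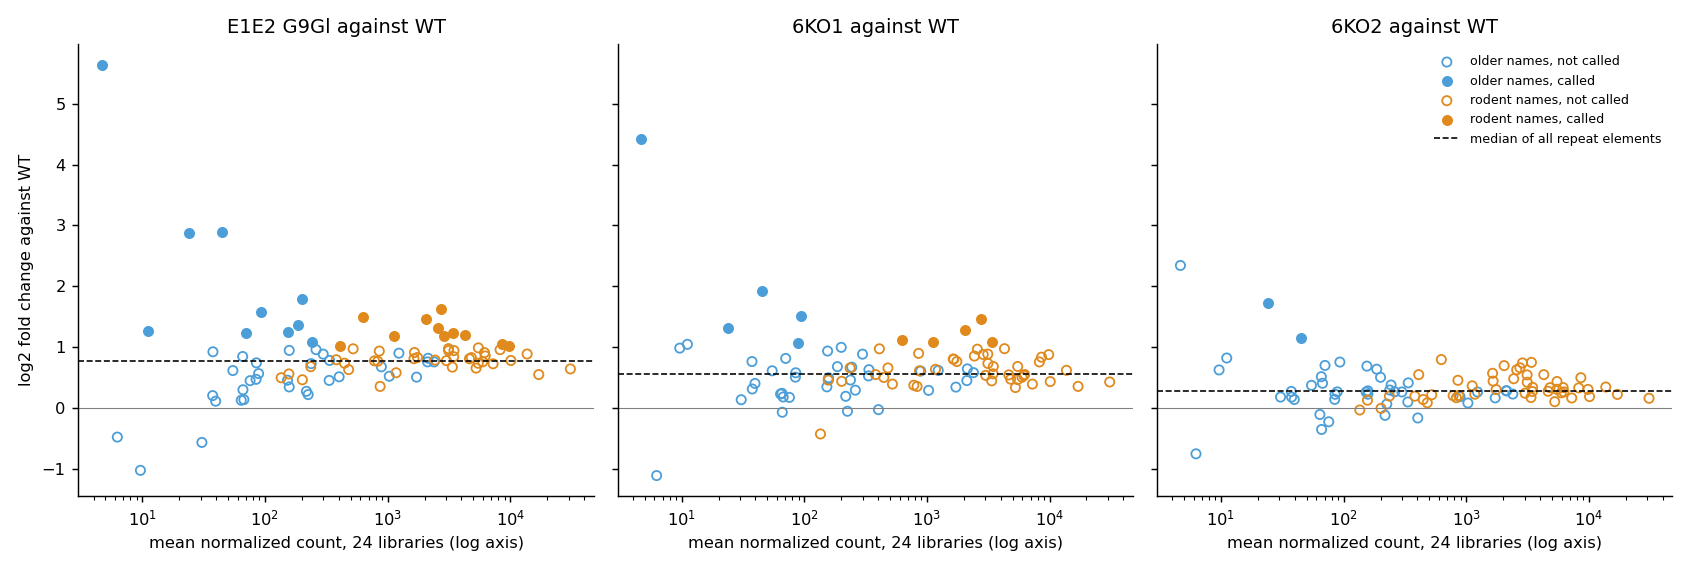
Log2 fold change against WT for the 91 tested members over their mean normalized count (log axis), in 3 mutants, by name group, with filled points for called members and a dashed line at the median of all repeat elements. The 34 rodent members of at least 1000 counts sit between 0.55 and 1.62 in *E1E2 G9Gl*, on both sides of that line, and the largest folds belong to older names with few counts.

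Within the rodent names, ORR1 counts were higher relative to MT counts in most mutants. The ratio of ORR1 to MT counts was 0.771 ± 0.00858 in WT, with a highest value of 0.777. It was 0.867 ± 0.00674 in *E1E2 G9Gl* and 0.853 ± 0.00926 in *6KO1*, with 0.823 ± 0.00241 in *6KO2*, all without overlap with WT. *E1* and *E1 S1S2* were also above WT in every library, at 0.791 ± 0.00336 and 0.807 ± 0.00251, whereas *E2* (0.788 ± 0.00666) lay just above WT and *E1E2* (0.780 ± 0.00699) overlapped it. This ratio is the same for every scaling of the libraries. It was not tested, because it sums over members.

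Subgroups of the rodent names differed more than the name groups did. The ORR1A subgroup, with 10 names, made up 14.5% ± 0.545 of ERVL-MaLR counts in WT, 17.3% ± 0.195 in *6KO1* and 17.0% ± 0.136 in *E1E2 G9Gl*, with 16.3% ± 0.114 in *6KO2*, and its lowest value in these mutants, 16.3%, was above the highest WT value of 15.1%. The MTD subgroup, with 2 names, held 15.5% ± 0.377 in WT and 13.9% ± 0.0579, 13.7% ± 0.0263 and 14.2% ± 0.111 in *6KO1*, *E1E2 G9Gl* and *6KO2*, all below WT. MTC held 9.54% ± 0.270 in WT and 8.39% ± 0.101, 8.19% ± 0.112 and 9.24% ± 0.108 in these mutants. The share of MTA, a young MT subgroup, was 10.8% ± 0.776 in WT, 11.7% ± 0.111 in *6KO1* and 11.5% ± 0.0590 in *E1E2 G9Gl*. WT replicate 2, at 11.7%, lay above the 3 *E1E2 G9Gl* libraries and within the *6KO1* range. With factors from genes, the log2 fold of the WT mean for the summed counts of ORR1A was 1.07 (*E1E2 G9Gl*), 0.86 (*6KO1*) and 0.48 (*6KO2*), and for MTD 0.65, 0.45 and 0.17. The ORR1F sum had 0.65, 0.32 and 0.098.

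**Figure D3:**
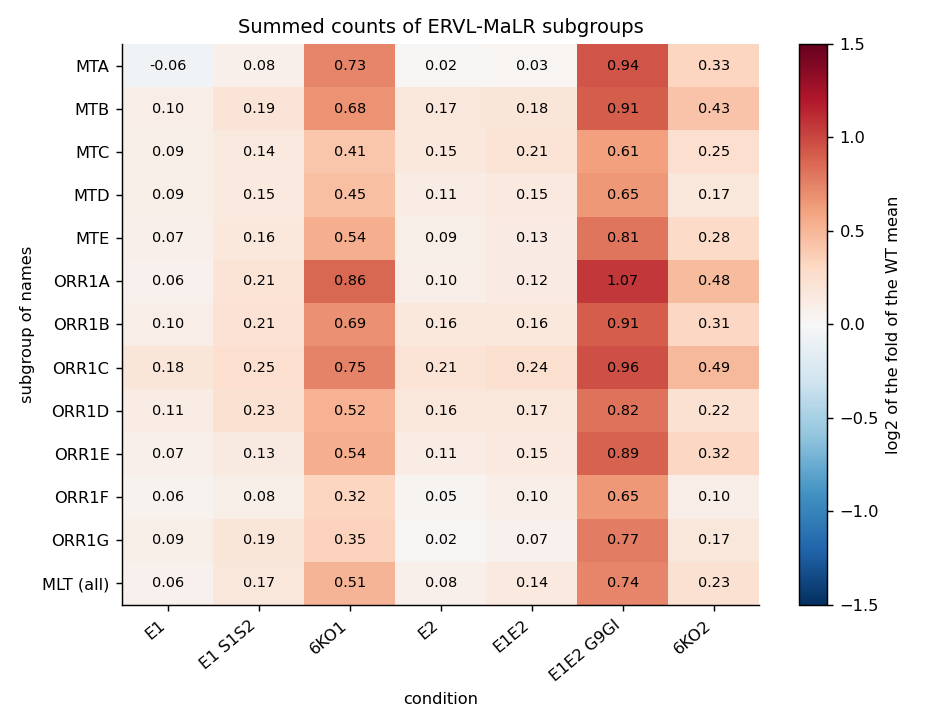
Log2 of the fold of the WT mean for the summed normalized counts of 12 rodent subgroups and of all MLT names, in the 7 mutants, with factors from genes (factors from the repeats would lower all cells of a mutant together). *E1E2 G9Gl* and *6KO1* are above 0 throughout, with ORR1A at 1.07 and 0.86, and *E1*, *E1 S1S2*, *E2* and *E1E2* lie lower in every subgroup than *E1E2 G9Gl* and *6KO1*.

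MTD, the most abundant member, held 30490, 20172 and 28601 normalized counts in WT, 42671, 39915 and 40998 in *E1E2 G9Gl* and 37447, 34573 and 34504 in *6KO1*, with 29601, 29654 and 29218 in *6KO2*. All *E1E2 G9Gl* and *6KO1* libraries lay above WT, whereas *6KO2* fell between its WT libraries. The log2 fold change was 0.64 (SE 0.113, adjusted p = 2.1e-06, edgeR), 0.43 (SE 0.113, adjusted p = 0.00092, edgeR) and 0.16 (SE 0.113, adjusted p = 0.25, edgeR), and without WT replicate 2 the *6KO2* value was -0.0026. With factors from repeats these values were -0.19, -0.18 and -0.16. MTD gave 10.6% of the net gain in ERVL-MaLR counts of *E1E2 G9Gl* and 9.84% of that of *6KO1*. The other abundant rodent LTRs MTC, MTA_Mm and ORR1D1 were at 0.55, 0.89 and 0.78 in *E1E2 G9Gl* and 0.35, 0.62 and 0.43 in *6KO1*, and passed the test in both, while with factors from repeats MTC and ORR1D1 were below 0 in both.

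MTA_Mm-int, the internal part of the MTA elements, was steadier in WT than the LTRs. It held 8229, 7553 and 8195 normalized counts in WT, 16500, 16198 and 15965 in *E1E2 G9Gl* and 14915, 14614 and 14482 in *6KO1*, with 9819, 9772 and 10010 in *6KO2*. WT replicate 2 was near its partners here, and the *E1E2 G9Gl*, *6KO1* and *6KO2* libraries did not overlap with WT. The log2 fold change was 1.02 (SE 0.0996, adjusted p = 1.0e-12, edgeR) in *E1E2 G9Gl*, which just passed the fold minimum and was 0.98 without WT replicate 2. It was 0.88 (SE 0.0994, adjusted p = 1.0e-10, edgeR) in *6KO1* and 0.30 (SE 0.0988, adjusted p = 0.0085, edgeR) in *6KO2*. In *E1* it was at -0.16 (adjusted p = 0.39, edgeR) and in *E1E2* at -0.12 (adjusted p = 0.44, edgeR).

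ORR1A1-int, an internal part of ORR1A elements, had the largest rise of a rodent name in *E1E2 G9Gl* and *6KO1*. It held 1911, 1341 and 1855 normalized counts in WT, 5244, 5209 and 5254 in *E1E2 G9Gl* and 4738, 4622 and 4728 in *6KO1*, with 2535, 2779 and 2753 in *6KO2*. All 9 libraries lay above WT, and *6KO2* lay below both other mutants. The log2 fold change was 1.62 (SE 0.114, adjusted p = 1.9e-17, edgeR), 1.46 (SE 0.113, adjusted p = 7.0e-16, edgeR) and 0.66 (SE 0.112, adjusted p = 1.9e-06, edgeR), or 1.48, 1.32 and 0.51 without WT replicate 2. Its LTR ORR1A1, chosen after its values were seen, was at 1.47, 1.28 and 0.70. Of the 11 rodent members called in *E1E2 G9Gl*, 8 were ORR1 and 3 MT names, and 5 of the ORR1 names belonged to ORR1A and 2 to ORR1C. Their log2 fold changes ran from 1.02 in MTA_Mm-int to the 1.62 of ORR1A1-int. The 5 rodent members called in *6KO1* were all ORR1 names, and 2 rodent members were called there without WT replicate 2. The 1 rodent member with a negative value in *6KO1*, ORR1F-int, chosen after its values were seen, held 104, 86.2 and 105 normalized counts there against 152, 93.1 and 153 in WT (log2 fold change -0.43, adjusted p = 0.017, edgeR), and the groups overlapped.

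The abundant older LTRs were higher in the same mutants, with factors from genes. MLT1A0 held 2335, 1496 and 2163 normalized counts in WT, 3512, 3211 and 3396 in *E1E2 G9Gl* and 3162, 2878 and 2914 in *6KO1*, with no overlap. Its log2 fold change was 0.76 (SE 0.117, adjusted p = 1.6e-07, edgeR) and 0.58 (SE 0.117, adjusted p = 2.6e-05, edgeR). MLT1B, MLT1D, MLT1C2 and MLT1A1 were at 0.82, 0.76, 0.51 and 0.90 in *E1E2 G9Gl* and 0.64, 0.45, 0.34 and 0.62 in *6KO1*, and all passed the test without the fold minimum. With factors from repeats MLT1A0, MLT1D and MLT1C2 were below 0 in both mutants, and MLT1B in *E1E2 G9Gl*. In *6KO2* the 5 abundant older LTRs lay between 0.16 and 0.28 and 0 of them passed it.

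MLT1L, an older LTR, rose in *E1E2 G9Gl* to 469, 412 and 456 normalized counts from 157, 80.4 and 151 in WT (log2 fold change 1.80, SE 0.153, adjusted p = 1.5e-14, edgeR). It held 266, 250 and 252 in *6KO1*, just under the fold minimum at 1.00 (SE 0.156, adjusted p = 2.5e-07, edgeR), and 165, 178 and 202 in *6KO2*. The 3 mutants lay above every WT library, *6KO2* least far.

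MLT1J1 held 21.3, 14.6 and 18.1 normalized counts in WT, 127, 133 and 140 in *E1E2 G9Gl* and 78.3, 59.2 and 67.5 in *6KO1*, with 38.3, 50.3 and 30.9 in *6KO2*, and was the 1 member called in 3 mutants. The log2 fold change was 2.89 (SE 0.223, adjusted p = 5.1e-16, edgeR), 1.93 (SE 0.235, adjusted p = 7.3e-10, edgeR) and 1.15 (SE 0.261, adjusted p = 0.00021, edgeR). Without *6KO2* replicate 2 the *6KO2* value was 0.95 and no longer called. None of the 9 mutant libraries overlapped with WT. MLT1F-int, an older internal part, held 53.3, 51.1 and 67.2 in WT, 174, 183 and 157 in *E1E2 G9Gl* and 183, 151 and 156 in *6KO1*, without overlap (log2 fold change 1.58 and 1.52, SE 0.161 and 0.159, adjusted p = 4.0e-12 and 1.1e-11, edgeR).

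MLT1B-int was called in 5 mutants, more than any other member. It held 14.9, 3.65 and 7.03 normalized counts in WT, 19.0, 17.0 and 29.7 in *E2*, 27.6, 31.0 and 22.7 in *E1E2*, 66.9, 63.6 and 54.4 in *E1E2 G9Gl* and 21.1, 20.0 and 21.5 in *6KO1*, with 18.6, 30.9 and 34.2 in *6KO2*. All libraries of these 5 mutants lay above WT, at few counts. The log2 fold changes were 1.37, 1.69, 2.88, 1.32 and 1.73, and without WT replicate 2 those of *E2* and *6KO1* were 0.98 (adjusted p = 0.079, edgeR) and 0.93 (adjusted p = 0.027, edgeR) and no longer called. MLT1A0-int, called in *E1 S1S2* and *E1E2 G9Gl*, held 4.26, 5.48 and 8.03 in WT and 14.1, 15.4 and 19.8 in *E1 S1S2* (log2 fold change 1.44, SE 0.398, adjusted p = 0.0052, edgeR), and both calls were lost without WT replicate 2 (adjusted p = 0.030 and 0.027, edgeR).

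MLT1A1-int gave the largest log2 values, 5.65 in *E1E2 G9Gl* and 4.43 in *6KO1*, from almost no counts in WT. The deposited counts were 1, 0 and 0 in WT, 16, 23 and 19 in *E1E2 G9Gl* and 8, 16 and 8 in *6KO1*, with 2, 1 and 3 in *6KO2*. MLT1A1-int passed the low-count filter only with the *E1E2 G9Gl* libraries, where it is highest. Its calls against WT and between mutants are therefore not independent of that selection. The ratio of scaled counts to WT was 68.5 (exact 95% interval 11.8 to 2753) in *E1E2 G9Gl* and 29.3 (4.89 to 1193) in *6KO1*. These intervals cover counting error only.

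**Figure D4:**
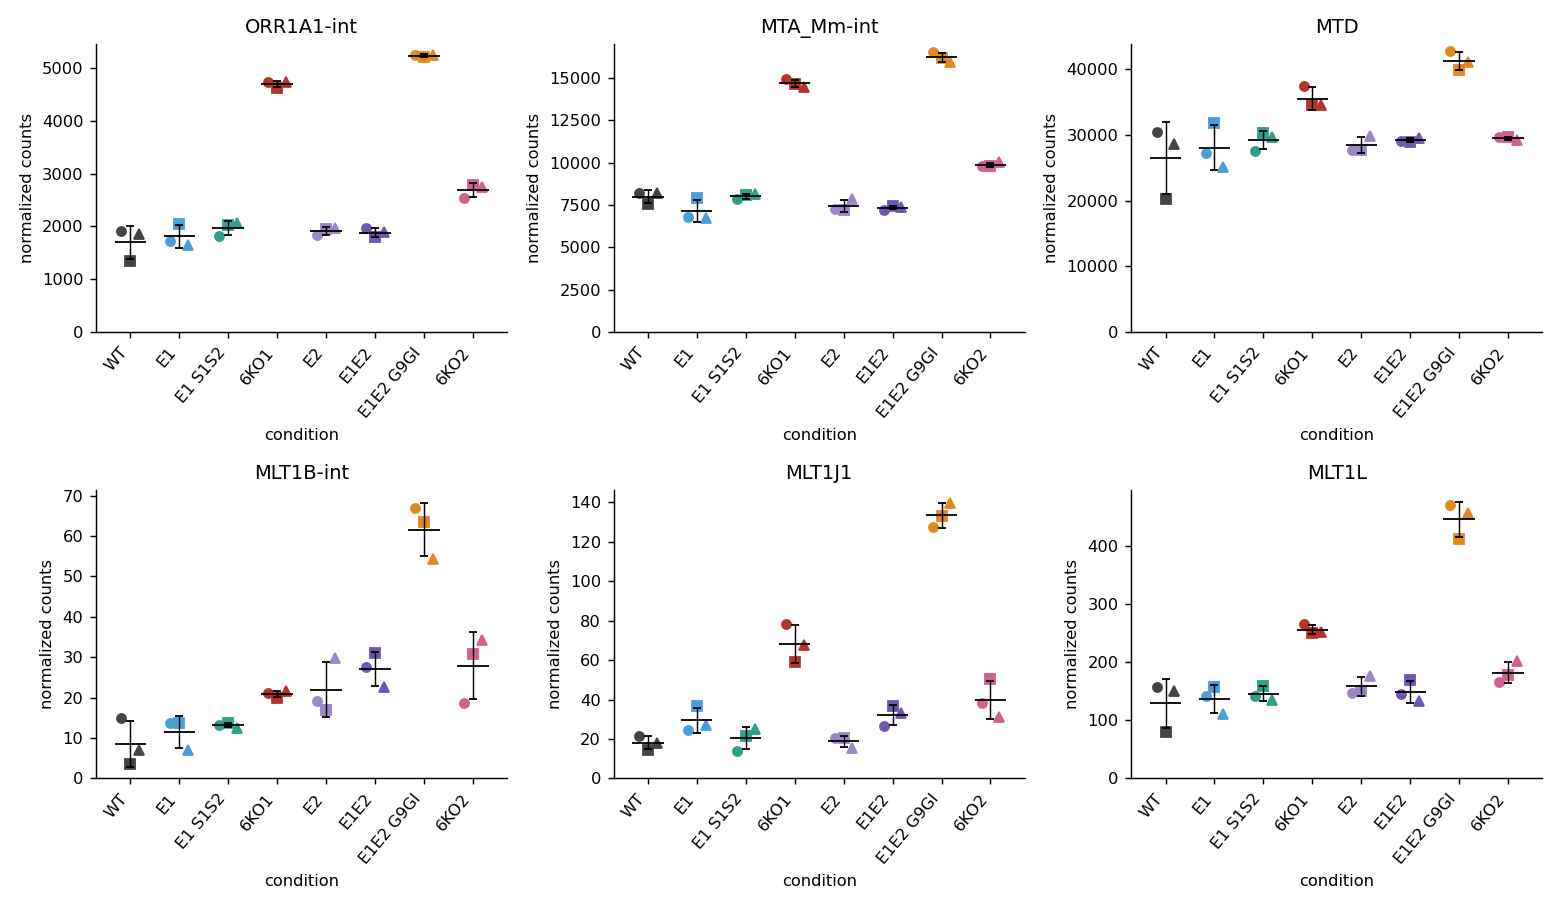
Normalized counts per library (axes from 0, with mean and SD, n = 3) for 3 rodent and 3 older members in the 8 conditions, with circle, square and triangle for replicates 1, 2 and 3. ORR1A1-int and MTA_Mm-int are far above WT in *6KO1* and *E1E2 G9Gl* and lower in *6KO2*. All members shown have their highest mean in *E1E2 G9Gl*.

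In the mutants of fewer genes, few members passed the test. In *E1*, 0 members were called upregulated or downregulated (4.61% and 0.247% of all repeat elements), 6 were higher and 1 lower at an unadjusted p under 0.05, and DESeq2 called 0. In *E1 S1S2* the 1 call was MLT1A0-int (6.41% of all repeat elements), and in *E2* and *E1E2* it was MLT1B-int (4.93% and 5.51%). Downregulated members numbered 0 in *E1 S1S2*, *E2* and *E1E2* (0.74%, 2.22% and 1.56% of all repeat elements), by edgeR and DESeq2, and 0 were lower at an unadjusted p under 0.05. Without the fold minimum 1, 5, 3 and 4 members were higher in *E1*, *E1 S1S2*, *E2* and *E1E2*, beside 7.65%, 14.2%, 9.54% and 12.7% of all repeat elements, and 0 were lower, beside 0.658%, 2.38%, 2.63% and 2.55%. Without WT replicate 2 the counts higher were 0, 2, 1 and 2. Every library lay above every WT library for 5, 17, 7 and 17 members, beside 13.7%, 27.3%, 17.8% and 25.6%. Among those higher were the internal parts ORR1C1-int and ORR1C2-int, chosen after their values were seen, at 0.43 and 0.50 in *E2* and 0.43 and 0.52 in *E1E2*.

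Each series had a step with many members higher. From *E1* to *E1 S1S2*, 0 members were called in either direction (1.48% and 1.15% of all repeat elements), 7 were higher and 1 lower at an unadjusted p under 0.05, and DESeq2 called 0. Without the fold minimum 1 member, MTEa-int at 0.41, chosen after its values were seen, was higher (3.95%) and 0 were lower (2.63%). From *E1 S1S2* to *6KO1*, 5 members were called upregulated (23.8%), all of them also called in *6KO1* against WT, and 46 were higher without the fold minimum (42.9%). Every *6KO1* library lay above every *E1 S1S2* library for 68 members (55.2%). Members called downregulated numbered 0 (0.576%), and 2 were lower at an unadjusted p under 0.05, with 0 called by DESeq2. Without the fold minimum 1 was lower (2.38%), ORR1F-int at -0.59 (SE 0.156, adjusted p = 0.0011, edgeR). From *E2* to *E1E2*, the same clone with titles that mark control and 4-OHT, 0 members were called in either direction (0.411% in each), 1 was higher and 0 lower at an unadjusted p under 0.05, and DESeq2 called 0. Without the fold minimum 0 were higher or lower (1.15% and 1.48%). From *E1E2* to *E1E2 G9Gl*, 14 members were called upregulated (33.6%) and 72 were higher without the fold minimum (56.8%), and the 1 called downregulated (0.905%), also the 1 lower without the fold minimum (2.47%), was MLT1E2-int, a name with few counts chosen after its values were seen. Every *E1E2 G9Gl* library lay above every *E1E2* library for 79 members (68.2%). MTA_Mm-int rose at this step by 1.14 on the log2 scale (SE 0.0999, adjusted p = 4.2e-14, edgeR) and ORR1A1-int by 1.47 (SE 0.113, adjusted p = 5.7e-16, edgeR).

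From *E1E2 G9Gl* to *6KO2* most members were lower with factors from genes. Without the fold minimum 70 of 91 members were lower, 44 rodent and 26 older, beside 51.4% of all repeat elements, and 4 older members, MLT1A1-int, MLT1J1, MLT1L and MLT1B-int, were called downregulated beside 16.9% of all repeat elements. With factors from repeats 7 rodent members were lower. MLT1E2-int was the 1 called upregulated (1.89%) and the 1 higher without the fold minimum (3.78%). The median log2 fold change was -0.53, with -0.47 for all repeat elements. Every *6KO2* library lay below every *E1E2 G9Gl* library for 76 members (66.5% of all repeat elements). ORR1A1-int changed by -0.96 (SE 0.112, adjusted p = 4.4e-10, edgeR).

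The lines that lack all 6 KMT genes differed from each other as well. Against *6KO1*, 26 members were lower in *6KO2* without the fold minimum, 17 rodent and 9 older, beside 25.2% of all repeat elements, and 0 were higher, beside 2.55%. The rodent count was 37 with gene totals alone, 8 with factors from repeats and 40 in a fit of the 6 libraries alone. It was 10 without *6KO1* replicate 1, and the older count was 5 without *6KO2* replicate 1 and 5 without *6KO2* replicate 2. Every *6KO2* library lay below every *6KO1* library for 65 members (54.6%). The 1 member called, lower in *6KO2*, was MLT1A1-int (5.02% of all repeat elements called downregulated), and 0 were called higher (1.32%), with 1 at an unadjusted p under 0.05 and 0 by DESeq2. Against *E1E2 G9Gl*, *6KO1* was lower in 16 members without the fold minimum (28.2% of all repeat elements), with 2 called, MLT1A1-int and MLT1B-int (9.95%), and MLT1E2-int was called higher (3.87%) and was the 1 higher without the fold minimum (6.83%). Every *6KO1* library lay below every *E1E2 G9Gl* library for 56 members (47.9%). Each of these lines is 1 clone, so genotype and clone cannot be told apart.

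Genes linked to class III elements were read beside them. Of 21 listed genes of the 2-cell stage, when class III LTRs drive many transcripts, 20 were in the table and 12 passed the low-count filter and were tested. Of these, 12 were called upregulated in *6KO1* (20.4% of all genes), 10 in *6KO2* (15.3%), 8 in *E1 S1S2* (6.64%), 5 in *E1E2* (5.49%), 2 in *E1E2 G9Gl* (16.8%) and 0 in *E1* and *E2* (2.27% and 2.91%). A gene can pass the filter through the mutants where it is high, so these counts are not independent of that selection. The order of these counts was not that of the ERVL-MaLR totals, since *E1E2 G9Gl* was highest in the elements and low in these genes. Most of them are *Zscan4* and *Usp17l* genes, near-identical copies between which reads can be shared, so their values are uncertain. Of 6 listed regulators of class III elements, 0 were called upregulated in any mutant, and those called downregulated were *Ehmt2* in *6KO1* and *Ehmt2* and *Setdb1* in *E1E2 G9Gl*, both targets of the study. Of 14 listed oocyte genes, 1 was tested and 0 were called. Summed fibroblast markers stood at 171203 to 215102 normalized counts in WT, 96998 to 108847 in *6KO1*, 142077 to 145721 in *6KO2* and 224062 to 241815 in *E1E2 G9Gl*. Summed epithelial markers stood at 8.22 to 16.1 in WT and at 243 to 268 (*6KO1*), 113 to 139 (*E1E2 G9Gl*) and 487 to 517 (*6KO2*), and *Krt5* was at 0 in 18 libraries. Among these markers *Krt14* reached 510.3 in a library, whereas *Epcam*, *Cdh1* and *Krt5* did not exceed 14.1, 8.86 and 4.89, so *Krt14* carried the high sums. Summed haematopoietic markers were 92.2 to 109 in WT, 485 to 553 (*6KO1*), 123 to 147 (*E1E2 G9Gl*) and 110.5 to 127 (*6KO2*), and *Adgre1* was at 0 in all 24 libraries. *Cd68* reached 527 in a library, whereas *Ptprc* and *Csf1r* did not exceed 50.5 and 9.94, so *Cd68* carried the high sums. Summed endothelial markers were 11.9 to 14.9 in WT and 67.4 to 139.8 over these 3 mutants. The part of these markers in the ERVL-MaLR values was not tested.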

How the data were processed

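RNA from 24 cultures of mouse embryonic fibroblasts (8 conditions, 3 libraries each) was examined as a table of counts per gene and per repeat element. The authors trimmed paired reads of stranded total RNA libraries with cutadapt 1.8.1, aligned them to GRCm38 with STAR 2.5.2b, counted them with TEtranscripts, and deposited whole-number counts, not normalized. TEtranscripts distributes multi-mapping reads, so a repeat count carries the error of that distribution. Whether the counting used strand is not given in the sources used here. Conditions came from the sample titles, 1 malformed entry was left out, and 0 columns lacked a sample.

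Repeat elements with low counts were removed by filterByExpr, which left 1216 of 1445. Library size was the gene-row total times the TMM factor from genes (R 4.3.3, edgeR 4.0.16, limma 3.58.1), after the study, which scaled repeats by gene counts. edgeR's quasi-likelihood test used 24 libraries with 1 coefficient per condition, two-sided, adjusted by Benjamini-Hochberg over all repeat elements tested, in 14 comparisons, 7 of them against WT. An exact permutation test with 3 libraries against 3 cannot go below p = 0.1. Genes were tested the same way (18513 tested). Replicate libraries were compared, and none differed by as little as sampling noise (chi-square per element from 5.04 to 221). Simulated counts for *6KO1* against WT, 1156 elements with 195 changed by a log2 of 2, gave 193 calls (99.0%) and 1 false call. The simulation held no deviation shared by a whole library. It does not measure recovery at the smaller changes of most members.

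Members and gene lists were chosen with earlier results of these data known. The elements named are the 5 most abundant of each name group, those called in 3 or more mutants, the 5 called ones with the largest rises and 3 with the largest falls in *E1E2 G9Gl*, *6KO1* and *6KO2*, those called in the mutants of fewer genes, and MTA names. Alternatives were gene totals alone, factors from repeats, DESeq2 1.42.0, no filter, no fold minimum, only the 6 libraries compared, a replicate block and each library left out. Sequences of the elements were not used here. Figures were drawn with matplotlib 3.10.9.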

Additional observations from a re-analysis of the deposited data

Results flagged for a closer look

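The step that adds the *Suv39h1* and *Suv39h2* mutations can be read in both series of clones, from *E1* to *E1 S1S2* and from *E1E2 G9Gl* to *6KO2*. The difference between these steps, tested as an interaction term in the same edgeR fit, was called in 6 of 91 members, all of them lower in the second series, beside 19.1% of all repeat elements. It was chosen for testing after the results against WT were known. MLT1A1-int passed the low-count filter only with the *E1E2 G9Gl* libraries, where it is highest, so its value below is not independent of that selection. The log2 differences were -5.13 for MLT1A1-int (SE 1.45, adjusted p = 0.0026, edgeR), -1.36 for MLT1B-int (SE 0.444, adjusted p = 0.0082, edgeR), -1.20 for MLT1J1 (SE 0.329, adjusted p = 0.0019, edgeR), -1.39 for MLT1L (SE 0.218, adjusted p = 8.8e-07, edgeR), -1.08 for ORR1A1-int (SE 0.158, adjusted p = 1.8e-07, edgeR) and -1.02 for ORR1D2-int (SE 0.158, adjusted p = 6.9e-07, edgeR). ORR1A1-int changed by 0.12 at the step of the first series and by -0.96 at that of the second, and MLT1L by 0.10 and -1.29. With a replicate block the value of MLT1B-int was -1.36 and no longer called (adjusted p = 0.0105, edgeR). With factors from repeats the 6 differences, in the order above, were -4.56, -0.76, -0.59, -0.78, -0.47 and -0.41, and 0 of them were called. Of 12 fits that each left out 1 library, the call was lost in 7 for MLT1B-int, 5 for ORR1D2-int, 2 for MLT1A1-int and 1 for MLT1J1, and in 0 for MLT1L and ORR1A1-int. The *Suv39h2* RNA was already at -1.47 in *E1E2 G9Gl* and at 0.76 in *E1 S1S2*, and its part in these differences was not tested. The difference between the step from *E2* to *E1E2* and that from WT to *E1* was called in 0 members by edgeR, beside 0.493% of all repeat elements called up and 4.28% called down. At an unadjusted p under 0.05 it was below 0 in 3 members and above 0 in 0, and it was not run with DESeq2.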

How the results depend on the processing

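Depth limits the older names most, since 21 of 43 tested ones have a mean under 100 normalized counts. Each WT library moved a count of calls by over 1.5 times in 1 or more comparisons, and each genotype is 1 clone. The results that answer a comparison are 42 counts of calls, totals and ratios. Under the alternatives, 407 of their values were equal, within 1.5 times for a count, or within the replicate spread for a total or ratio. The other 97 moved. Counts of 0 that stayed at 0 are among the 407. For single elements 551 were unchanged, 23 reversed, 48 weaker and 8 stronger, and for counts by name group and ratios of sums 191 were unchanged and 20 moved.

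With factors from repeats alone, which scale away a shift of all repeats, the upregulated counts were 0 (*E1 S1S2*), 2 (*6KO1*), 3 (*E1E2 G9Gl*) and 1 (*6KO2*), with 2 and 3 called downregulated in *6KO1* and *E1E2 G9Gl*. In the steps they were 3 up and 1 down from *E1 S1S2* to *6KO1*, 2 up and 2 down from *E1E2* to *E1E2 G9Gl*, 2 up and 2 down from *E1E2 G9Gl* to *6KO2*, 0 down for *6KO2* against *6KO1* and 1 down for *6KO1* against *E1E2 G9Gl*. The totals against WT were 1.00 (*E1E2 G9Gl*), 0.995 (*6KO1*), 0.985 (*6KO2*), 0.976 (*E1 S1S2*), 1.00 (*E1E2*) and 0.996 (*E2*). Reversed log2 fold changes under these factors were, for *E1E2 G9Gl*, *6KO1* and *6KO2* in order, -0.19, -0.18 and -0.16 in MTD, -0.28, -0.25 and -0.10 in MTC, -0.051, -0.17 and -0.14 in ORR1D1, -0.071, -0.024 and -0.091 in MLT1A0, -0.076, -0.16 and -0.045 in MLT1D, and -0.32, -0.27 and -0.16 in MLT1C2. Reversals also occurred in MLT1B in *E1E2 G9Gl* (-0.010) and *6KO2* (-0.037), in MTA_Mm-int in *6KO2* (-0.050) and in MLT1A1 in *6KO2* (-0.068). MTD in *6KO2* ran from -0.0026 to 0.27 over the left-out libraries, lowest without WT replicate 2.

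With gene totals alone 23 members were called upregulated in *6KO1*, 0 from *E1E2 G9Gl* to *6KO2*, and 1 downregulated in *6KO1* against *E1E2 G9Gl*, and the totals were 1.19 of WT in *E1 S1S2* and 1.71 in *6KO1*. With DESeq2 0 were called up in *E1 S1S2*, 0 up from *E1E2 G9Gl* to *6KO2*, 0 down for *6KO2* against *6KO1* and 1 down for *6KO1* against *E1E2 G9Gl*. With only the 6 libraries compared 0 were called up in *E2*, 0 down from *E1E2* to *E1E2 G9Gl*, 0 up from *E1E2 G9Gl* to *6KO2* and 0 down for *6KO2* against *6KO1*. Without a fold minimum the counts up against WT were 78 (*E1E2 G9Gl*), 71 (*6KO1*), 29 (*6KO2*), 5 (*E1 S1S2*), 4 (*E1E2*), 3 (*E2*) and 1 (*E1*), and 1, 46 and 72 at the upward steps, with 1, 70, 26 and 16 down in *6KO1* against *E1 S1S2*, *6KO2* against *E1E2 G9Gl*, *6KO2* against *6KO1* and *6KO1* against *E1E2 G9Gl*.

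Without the largest member the total was 1.25 of WT in *6KO2*. The rodent to older log2 difference was 0.14 in *6KO1* and 0.14 in *E1E2 G9Gl* without the largest member of each group, 0.047 in *6KO1* with LTR names only, and 0.050 in *E1 S1S2* and 0.039 in *6KO2* as a difference of medians of single members.

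Leaving out each library in turn gave 0 to 1 members up in *E1 S1S2*, 5 to 16 in *6KO1* (5 without WT replicate 2, 16 without WT replicate 3), 0 to 1 in *E2*, 14 to 32 in *E1E2 G9Gl* (14 without WT replicate 2, 32 without WT replicate 1) and 1 to 2 in *6KO2* (1 without *6KO2* replicate 2). Members down were 0 to 1 in *6KO1* against WT. At the steps the ranges were 0 to 1 down in *6KO1* against *E1 S1S2*, 0 to 1 down in *E1E2* against *E2*, 0 to 1 down in *E1E2 G9Gl* against *E1E2*, 0 to 1 up in *6KO2* against *E1E2 G9Gl*, 0 to 1 down in *6KO2* against *6KO1*, and 0 to 1 up and 1 to 2 down in *6KO1* against *E1E2 G9Gl*. Totals against WT ran from 1.61 to 1.91 (*E1E2 G9Gl*), 1.37 to 1.63 (*6KO1*), 1.11 to 1.32 (*6KO2*), 1.02 to 1.20 (*E1 S1S2*), 0.996 to 1.18 (*E1E2*), 0.976 to 1.16 (*E2*) and 0.949 to 1.13 (*E1*), lowest without WT replicate 2 in each. The ERVL-MaLR to SINE and ORR1 to MT ratios, alternatives chosen after seeing the data, kept their direction in all mutants, with 0.57 to 0.59 and 0.14 to 0.15 in *6KO1* on the log2 scale.

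Same-numbered libraries did not deviate together in every pair of a comparison (r from -0.27 to 0.23), so the numbers were not taken as a pairing. With the replicate block 0 members were called up from *E1E2 G9Gl* to *6KO2*, and no other count of calls moved by over 1.5 times. The cause of these changes was not tested.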
